A study of Mus musculus with 47 samples.

Results

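Peaks of chromatin-bound proteins and histone marks were examined at 8 genes of transforming growth factor β (TGFβ) signalling and its feedback, out of 21883 protein-coding genes with a position in the mm10 annotation. The rule takes the 8 genes by name and uses no measured value, and each contributes its gene span with 10 kb on either side as a window. They are Tgfb1, which encodes the ligand, Tgfbr1 and Tgfbr2, which encode the type I and type II receptors, Smad3, which carries the signal to the nucleus, and Smad7, Ski, Skil and Pmepa1, which restrain it. Every peak of every list that touches a window was counted, which gave 814 gene and peak pairs from 32 lists.

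The ligand brings the type II and type I receptor kinases together, and the active type I receptor phosphorylates SMAD2 and SMAD3, which enter the nucleus with SMAD4 and act at enhancers together with other factors, AP-1 among them. The pathway induces its own inhibitors: SMAD7 blocks and degrades the receptor, SKI and SKIL (SnoN) are corepressors that bind SMADs, and PMEPA1 is a membrane protein that holds receptor SMADs back. In mammary epithelial cells the same pathway drives the change from an epithelial to a mesenchymal state.

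The cells were NMuMG, an established mouse mammary gland epithelial line obtained from ATCC, and the assay was ChIP-seq, in which DNA bound by a protein is pulled down with an antibody and sequenced. Control cells and Pbrm1 knockout (KO) cells were left untreated (0 h) or given 5 ng/ml TGFβ1 for 24 or 48 h. PBRM1 and PHF10 are subunits of PBAF, an assembly of SWI/SNF, the remodelling complex whose ATPase is BRG1 or BRM, while ATF3, FOSB and FOSL2 are leucine zipper factors of the ATF and AP-1 families. PHF10 was profiled in control cells at 0 h (2 libraries), 24 h (1) and 48 h (2) and in KO cells at 0 and 48 h (1 each). ATF3 was profiled in both genotypes at 0, 24 and 48 h, FOSB and FOSL2 in both genotypes at 0 and 48 h, BRG1 in untreated control cells, and 5 histone marks (methylation as H3K4me1 and H3K4me3, acetylation as H3K14ac, H3K18ac and H3K27ac) in control cells at 0 and 48 h, with 1 library for each. The labels do not say whether the KO line is a single clone or whether the replicate libraries came from separate cultures, and peak lists do not test the knockout itself.

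Lists held from 2 peaks (FOSB, KO, 0 h) to 158815 peaks (PHF10, KO, 48 h), and the number of reads behind each is unknown. H3K4me3 peaks in untreated cells lay at 10 of 10 epithelial marker genes, with Cdh1 among them and folds from 5.14 to 82.4. They also lay at 6 of 12 marker genes of other cell types, with folds up to 17.5. These were Cdh5 and Kdr (endothelium), Myh11 and Des (muscle), and Pdgfra and Pdgfrb (fibroblasts and pericytes). No peak lay at Ptprc, Cd3e, Cd68, Pecam1 or Plin1. The windows of the 8 genes ran from 38.1 kb (Tgfb1) to 131.2 kb (Smad3), with a median of 77.0 kb against 37.2 kb over all genes, so any share of genes with a peak in a window is set higher for these genes by length alone. Some windows also hold a neighbouring gene: Aagab beside Smad3, Morn1 beside Ski, Zbp1 beside Pmepa1, and B9d2, Ccdc97 and Tmem91 beside Tgfb1. On GRCm38.p6, the assembly of mm10, Tgfb1 lies at chr7:25687002-25705077, Tgfbr1 at chr4:47353222-47414926, Tgfbr2 at chr9:116087695-116175363, Smad3 at chr9:63646766-63757994, Ski at chr4:155154075-155222535, Skil at chr3:31095058-31122923 and Pmepa1 at chr2:173224458-173276731. Exons and introns were not annotated here.

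The start of a gene is where most of these proteins and marks met, so the 250 bases upstream of the start are shown for 4 of the 5 genes that matched the RefSeq promoter table by symbol. All are 5′ to 3′ on the strand of the gene, from RefSeq on GRCm38.p6. The first 3 sequences are shown because PHF10, ATF3 and 4 of the marks were called around them, and capitals mark CG dinucleotides. Smad3 is on the minus strand at chr9:63757995-63758244, Tgfb1 on the plus strand at chr7:25686752-25687001, and Tgfbr1 on the plus strand at chr4:47352972-47353221.
Smad3: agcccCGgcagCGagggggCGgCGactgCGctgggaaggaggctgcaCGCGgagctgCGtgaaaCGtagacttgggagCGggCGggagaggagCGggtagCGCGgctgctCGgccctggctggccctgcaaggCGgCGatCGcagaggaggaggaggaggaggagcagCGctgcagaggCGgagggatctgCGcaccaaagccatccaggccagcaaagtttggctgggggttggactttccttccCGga
Tgfb1: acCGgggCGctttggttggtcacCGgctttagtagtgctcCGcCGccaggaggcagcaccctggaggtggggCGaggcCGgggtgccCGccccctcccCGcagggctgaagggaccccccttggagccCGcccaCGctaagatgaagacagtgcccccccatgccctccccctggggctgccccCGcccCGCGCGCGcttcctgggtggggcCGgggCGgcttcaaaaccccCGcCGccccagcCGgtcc
Tgfbr1: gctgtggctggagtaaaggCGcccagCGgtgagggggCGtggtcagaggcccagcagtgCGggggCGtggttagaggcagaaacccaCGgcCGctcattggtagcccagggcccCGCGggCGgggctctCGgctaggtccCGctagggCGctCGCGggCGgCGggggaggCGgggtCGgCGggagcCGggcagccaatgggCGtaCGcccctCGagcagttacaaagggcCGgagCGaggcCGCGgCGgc
The upstream bases of Smad3 held 22 CG dinucleotides, those of Tgfb1 held 21 and those of Tgfbr1 held 29. Ski, not printed, held 53. The median over 32851 RefSeq promoters was 6 in the same 250 bases.

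The Tgfbr2 sequence, minus strand at chr9:116175364-116175613, is shown because it was the only start among the 8 with a peak of an AP-1 protein. Capitals mark the 92 bases inside the FOSL2 peak of KO cells at 48 h.
Tgfbr2: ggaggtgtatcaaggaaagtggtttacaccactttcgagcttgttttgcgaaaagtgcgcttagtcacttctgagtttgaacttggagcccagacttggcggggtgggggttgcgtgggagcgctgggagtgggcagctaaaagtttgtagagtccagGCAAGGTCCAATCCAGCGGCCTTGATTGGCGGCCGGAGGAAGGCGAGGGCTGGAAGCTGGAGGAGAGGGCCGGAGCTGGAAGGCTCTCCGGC
Tgfbr2 held 12 CG dinucleotides, the fewest of the 5. The AP-1 motif TGANTCA was searched on both strands and was in none of the 5 upstream sequences, against 6.75% of all promoters of the table. The other motifs searched were also in none of the 5: TGACGTCA (ATF and CREB, in 1.55% of promoters), CAGACA (a SMAD box, 17.1%), GTCTAGAC (a SMAD palindrome, 0.167%) and GGAATG (a TEAD motif, 12.6%). These counts say only that the letters are not in this window.

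PHF10 was called at the start of all 8 genes in all 7 of its lists, whatever the genotype or time. A start region is taken as 2.5 kb to either side of the gene start. Of the 17491 genes with a start in the promoter table, 32% had PHF10 there in all 7 lists, and of the 10554 genes that carried H3K4me3 at the start at both times, 53.0% did. For Smad7, Skil and Pmepa1 the start is the gene end with the stronger H3K4me3 peak in untreated cells. In the 5 genes with a known strand that end was the start in every case. Choosing the end by H3K4me3 favours a peak at the starts of Smad7, Skil and Pmepa1. The shares over all genes rest on tabled starts alone. BRG1 was likewise at the start of all 8 in untreated cells, against 33.7% of all genes with a start and 50.7% of those with H3K4me3.

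Within their own lists the PHF10 peaks at the 8 starts were of middling strength. Fold enrichment, which is the ChIP to input ratio deposited by the authors, is used here to place a peak within its own list. A cut at 5-fold was an alternative setting. In untreated control cells the start peaks had folds from 4.80 to 18.3 (median 10.9) in replicate 1, whose list had a median of 8.70, and from 3.87 to 6.13 (median 4.31) in replicate 2, whose list had a median of 3.93. The Skil start ranked in the top 4.46% of replicate 1 and the Tgfbr1 start in the top 1.28% of replicate 2. The Tgfbr2 start was the weakest in replicate 1, at 80.9% from the top, so the order of the 8 genes differed between the replicates.

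**Figure D1:**
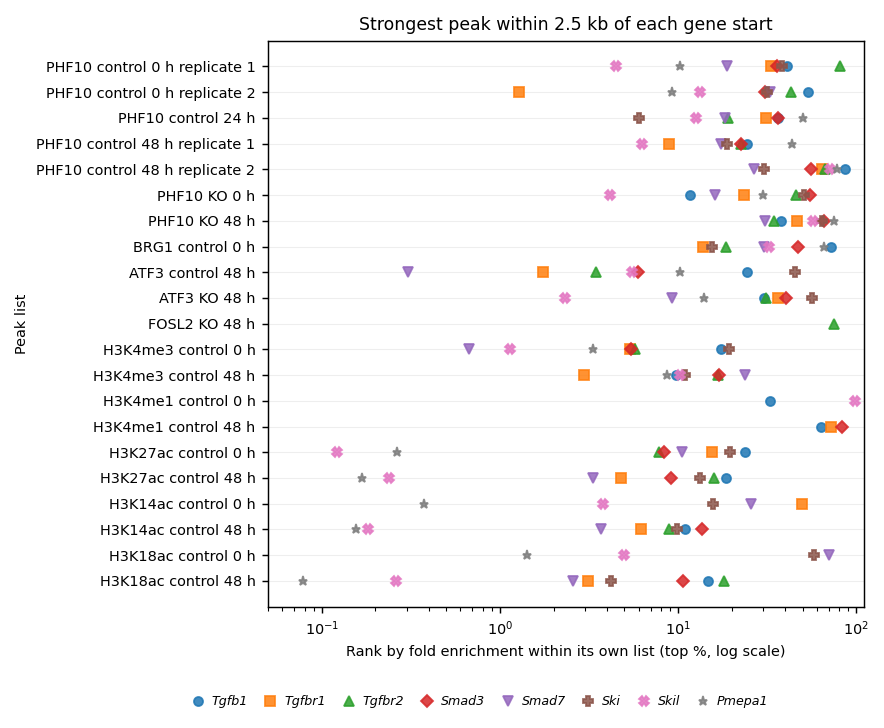
Rank of the strongest peak within 2.5 kb of each gene start among all peaks of its own list, by fold enrichment (x axis, top percent, log scale, left is stronger), for each list with such a peak (y axis) and each gene (symbols). Pmepa1 and Skil lie farthest left in the H3K27ac, H3K14ac and H3K18ac lists, while BRG1 and most PHF10 peaks lie between 10% and 100%.

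The active marks at the starts were far stronger than the typical peak of their lists. Start peaks of other genes were not ranked, so this is no comparison with gene starts in general. H3K4me3 was at all 8 starts at 0 and 48 h (60.3% of all genes), with folds from 43.9 (Ski) to 104 (Smad7) and a median of 77.3 at 0 h, and from 28.8 to 68.6 with a median of 51.9 at 48 h. For Smad7, Skil and Pmepa1 the H3K4me3 peak at 0 h placed the start, so its presence there was set in advance. Only the members with a tabled start can be set against the 60.3%. H3K27ac was at all 8 starts at both times (47.2%), with folds from 66.7 (Tgfb1) to 284 (Skil) at 0 h and from 97.6 (Tgfb1) to 265 (Pmepa1) at 48 h. The list medians for H3K27ac were 10.6 and 13.1. The Skil and Pmepa1 starts stood out among the 8, in the top 0.122% and 0.263% of H3K27ac peaks at 0 h and in the top 0.238% and 0.169% at 48 h.

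The other 2 acetylation marks were called at more of the starts after TGFβ1. H3K14ac was at the start of 5 of the 8 genes at 0 h (12.9% of all genes), with Tgfb1, Tgfbr2 and Smad3 lacking it, and at all 8 at 48 h (61.3%). H3K18ac was at the start of Smad7, Ski, Skil and Pmepa1 at 0 h (11%), and at all 8 at 48 h (31.0%). Among genes with H3K4me3 at the start at both times, 21.4% had H3K14ac and 16.2% had H3K18ac there at 0 h, and 49.8% had H3K18ac there at 48 h. H3K18ac folds at the 8 starts at 48 h ran from 16.8 (Tgfbr2) to 199 (Pmepa1), with a median of 82.8 against 5.19 for the list, and the Pmepa1 peak was in the top 0.0784%. The 4 start peaks at 0 h had folds from 4.53 (Smad7) to 14.7 (Pmepa1), and the list median was 5.15. The H3K14ac list grew from 3453 to 35270 peaks and the H3K18ac list from 13226 to 20415 between the 2 times, and the part of that growth in these counts was not tested.

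ATF3 was at no start at 0 or 24 h and at all 8 at 48 h, in both genotypes (57.0% of all genes in both lists, 90.6% of those with H3K4me3). In control cells the fold at the start ran from 7.08 (Ski) to 16.6 (Smad7) with a median of 11.8, and the list median was 6.76. The Smad7 start ranked in the top 0.306% and the Tgfbr1 start in the top 1.74%. In KO cells the folds ran from 3.37 to 5.89 with a list median of 3.52, and the Skil start ranked highest, in the top 2.31%. With 1 library per genotype and lists of 45716 and 144513 peaks, these folds are not compared between genotypes. Before 48 h the ATF3 lists were short, with 20 (control) and 25 (KO) peaks at 0 h and 2004 and 69 at 24 h. At 24 h only 1.26% of all genes in control and 0.0114% in KO cells had ATF3 at the start.

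Taking PHF10, ATF3 at 48 h, H3K4me3 and H3K27ac at both times and H3K14ac and H3K18ac at 48 h, all 8 genes had every one of these 15 lists at the start, against 25.2% of all genes with a start and 41.8% of those with H3K4me3 there at both times. Each of these 15 lists has a peak at all 8 starts, so this result was set by the choice of lists. The 25.2% and 41.8% are therefore no independent comparison. Other lists did separate the starts. H3K14ac at 0 h was at 5 of the 8, and H3K18ac at 0 h at 4, which were the inhibitor genes Smad7, Ski, Skil and Pmepa1. The H3K18ac peaks of Smad7 (fold 4.53, 70.7% from the top) and Ski (4.93, 57.7%) were below the list median of 5.15. This split rests on 1 library, and the starts of Smad7, Skil and Pmepa1 were placed by H3K4me3. H3K4me1 was at 2 starts at 0 h and at 3 at 48 h, and FOSL2 in KO cells at 48 h was at 1.

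**Figure D2:**
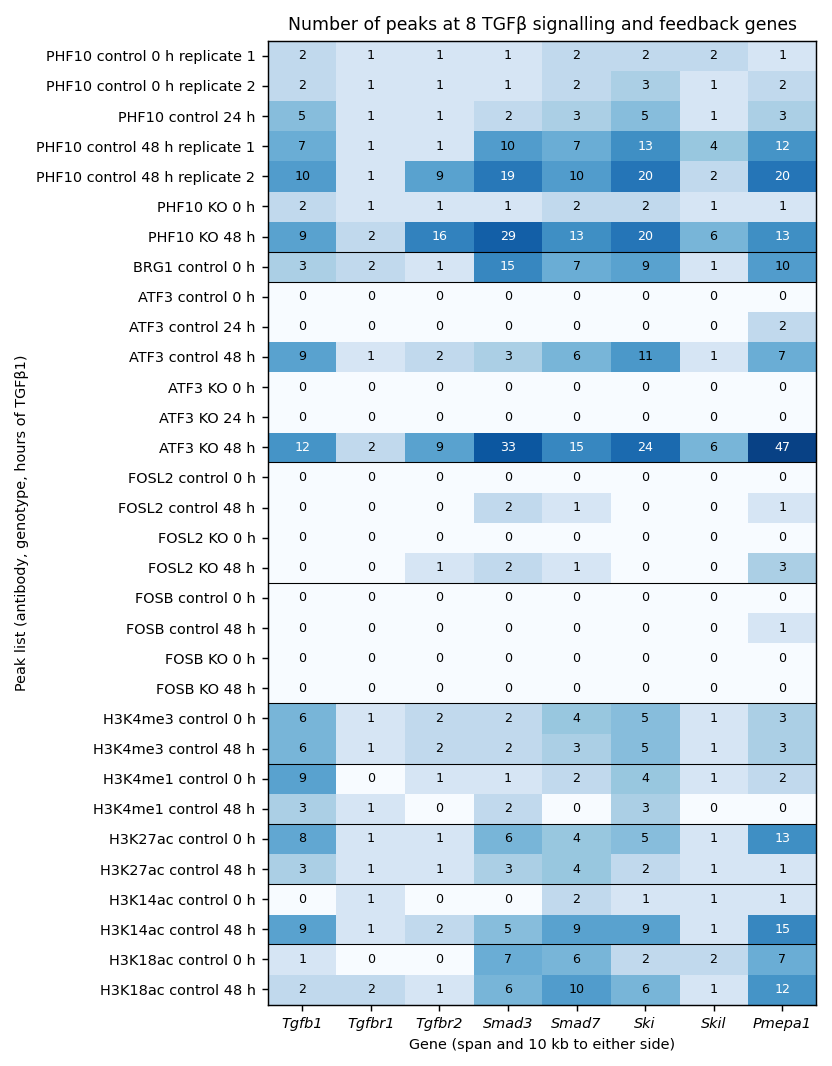
Number of called peaks in the window of each gene (columns) in each of the 32 lists (rows), with darker blue for more peaks. PHF10 and ATF3 counts are highest at 48 h, and Pmepa1, Smad3 and Ski carry most of them.

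Away from the starts, the peaks were spread unevenly over the genes. The 7 PHF10 lists in turn held 12 and 13 peaks in the 8 windows in untreated control cells, 21 at 24 h, 55 and 91 at 48 h, 11 in untreated KO cells and 108 in KO cells at 48 h. Both control libraries at 48 h were above both at 0 h. On the log2 scale the means were 6.14 ± 0.51 and 3.64 ± 0.08 (SD, n = 2 each), a difference of 2.5 or 5.66-fold, with p = 0.33 by an exact two-sided permutation test, which is the smallest that 2 against 2 allows. In Pmepa1 the counts were 1 and 2 at 0 h, 3 at 24 h and 12 and 20 at 48 h, and in Smad3 they were 1 and 1, 2, and 10 and 19. Ski had 2 and 3, then 5, then 13 and 20.

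Smad3, Smad7, Ski, Pmepa1 and Tgfb1 had more PHF10 peaks in each 48 h control library than in either 0 h library, which is 5 of the 8 where 52.1% of all genes did. Tgfbr1 kept a single PHF10 peak in all 5 control lists. Tgfbr2 had 1 peak in every control list but the second at 48 h, which had 9, and Skil had 2 and 1 at 0 h against 4 and 2 at 48 h, so for these genes the libraries overlapped or were equal. At 24 h, 5 of the 8 (the same genes) had more peaks than in either 0 h library, against 38.0% of all genes.

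These counts went with the length of the lists. Of the window peaks of both times, 84.9% belonged to the 48 h libraries (exact 95% interval 75.5% to 91.7%), where the share was 81.6% over all gene windows and 84.9% over the whole lists. With the lists cut to equal length by significance the share was 40.0% (8 against 12 peaks), so the direction turned. With peaks of at least 5-fold it was 12.5%, from 1 peak against 7. The list medians of fold were 2.99 and 2.92 at 48 h and 8.70 and 3.93 at 0 h. The 5-fold cut thus falls unlike on the lists and cannot give a direction.

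The median width of PHF10 window peaks in control cells was 899 and 806 bp at 0 h and 844 and 823 bp at 48 h. In KO cells it was 944 bp at 0 h and 1120.5 bp at 48 h. PHF10 peaks covered 2.00% and 2.24% of the summed windows at 0 h, 10.4% and 17.3% in control cells at 48 h, and 30.8% in KO cells at 48 h. Over all gene windows the same shares were 0.471% and 0.632%, 2.05% and 5.25%, and 9.61%. At 48 h Pmepa1 had the most covered bases of the 8 genes, 20.5 and 34.3 kb of its window in control cells and 47.7 kb, or 65.9%, in KO cells. At 0 h it had 1.06 and 1.63 kb, fewer than Smad7, Ski, Skil and Tgfb1. In 7 of the 8 genes the KO library at 48 h covered more bases than either control library, with Tgfbr1 (1.88 kb against 2.18 and 1.54 kb) the exception. All gene windows together went the same way (9.61% against 2.05% and 5.25%), and the KO list was the longest (158815 peaks against 43549 and 102434). The share of all genes under the same rule was not computed, so this count is no trait of the 8 genes.

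Sites were then required in both control libraries at 48 h and in neither at 0 h, which left 31 PHF10 sites: 10 in Pmepa1, 7 in Ski, 6 in Smad3, 5 in Tgfb1 and 3 in Smad7. None lay in the windows of Skil, Tgfbr1 or Tgfbr2. Of the 31, 30 were also called in KO cells at 48 h (96.8%, against 96.6% of 18350 such sites in all gene windows). BRG1 was already called at 9 of the 31 in untreated cells (29.0%, interval 14.2% to 48.0%, against 10.3%), H3K27ac in untreated cells at 12 (38.7%, against 17.7%), and H3K18ac at 48 h at 7 (22.6%, interval 9.59% to 41.1%, against 1.68%). Pmepa1 held 5 of the 9 sites with BRG1 and 4 of the 7 with H3K18ac, and without it the shares were 19.0% and 14.3% of 21 sites. The remaining H3K18ac sites were 2 in Smad7 and 1 in Smad3. Peaks of these 3 lists also covered more of the 8 windows than of all gene windows. The covered shares were 7.27% against 1.26% for BRG1, 4.62% against 1.04% for H3K27ac at 0 h, and 5.80% against 0.650% for H3K18ac at 48 h. How far this density sets the overlaps was not tested.

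**Figure D3:**
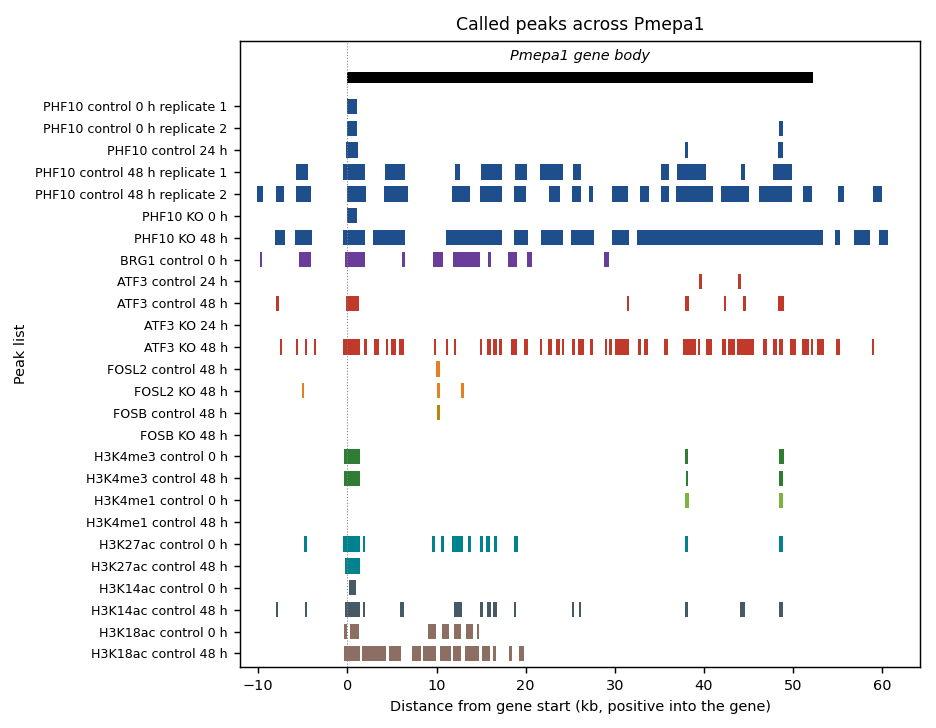
Called peaks (bars, coloured by antibody) in each list across Pmepa1, by distance from the gene start in kb, with the gene body in black. PHF10 and ATF3 peaks spread over the gene at 48 h, H3K27ac is left with the start peak alone, and H3K18ac peaks run from the start to 20 kb.

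Pbrm1 KO cells did not lack PHF10 at these genes. Untreated KO cells had 11 window peaks against 12 and 13 in control cells, and no gene was above or below both control libraries (3.03% of all genes were above both and 2.69% below both). At 48 h KO cells had 108 against 55 and 91. Smad3, Smad7, Skil, Tgfbr1 and Tgfbr2 exceeded both control libraries, which is 5 of 8 against 57.5% of all genes. In Tgfbr2 the counts were 16 in KO cells and 1 and 9 in control cells, and in Smad3 they were 29 and 10 and 19. Within KO cells all 8 genes had more PHF10 peaks at 48 h than at 0 h, as 85.4% of all genes did. The 48 h genotype comparison also turned at equal list length (32.8% of window peaks in KO against 59.7% with the full lists), and so did the KO comparison of 48 h with 0 h (8.33% against 90.8%).

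ATF3 had no peak in any window at 0 h in either genotype. At 24 h control cells had 2, both in Pmepa1 at 39.6 and 44.0 kb from the start with folds of 3.55 and 2.66, in the weaker part of their list, and KO cells had none. A peak at 24 h in control cells alone was thus found at 1 of the 8 genes, where 6.99% of all genes had one. The KO list at 24 h held 69 peaks in all, against 2004 in control cells. By 48 h control cells had 40 window peaks and KO cells 148, and all 8 genes had more in KO cells (72.2% of all genes did). Pmepa1 had 7 in control and 47 in KO cells, Smad3 had 3 and 33, and Ski had 11 and 24. Tgfbr1 had 1 and 2. KO cells held 78.7% of these peaks (interval 72.2% to 84.3%, against 73.2% over all gene windows), and 58.3% once the lists were of equal length. Above 5-fold the share was 9.68%. The list medians of fold were 6.76 in control and 3.52 in KO cells, so that cut cannot give a direction.

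Most of the extra ATF3 peaks in KO cells lay where PHF10 was also called in KO cells. Of the 148 KO peaks, 117 overlapped no control ATF3 peak, and 101 of these 117 overlapped a KO PHF10 peak at 48 h (86.3%, interval 78.7% to 92.0%, against 78.2% over all gene windows), which must be read beside the 30.8% of the windows that those PHF10 peaks cover. Untreated BRG1 was called at 25 of the 117 (21.4%, interval 14.3% to 29.9%, against 5.01%), 10 of them in Pmepa1 and 8 in Smad3. H3K4me3 was at 2 of the 117. BRG1 peaks covered 7.27% of the 8 windows and 1.26% of all gene windows.

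**Figure D4:**
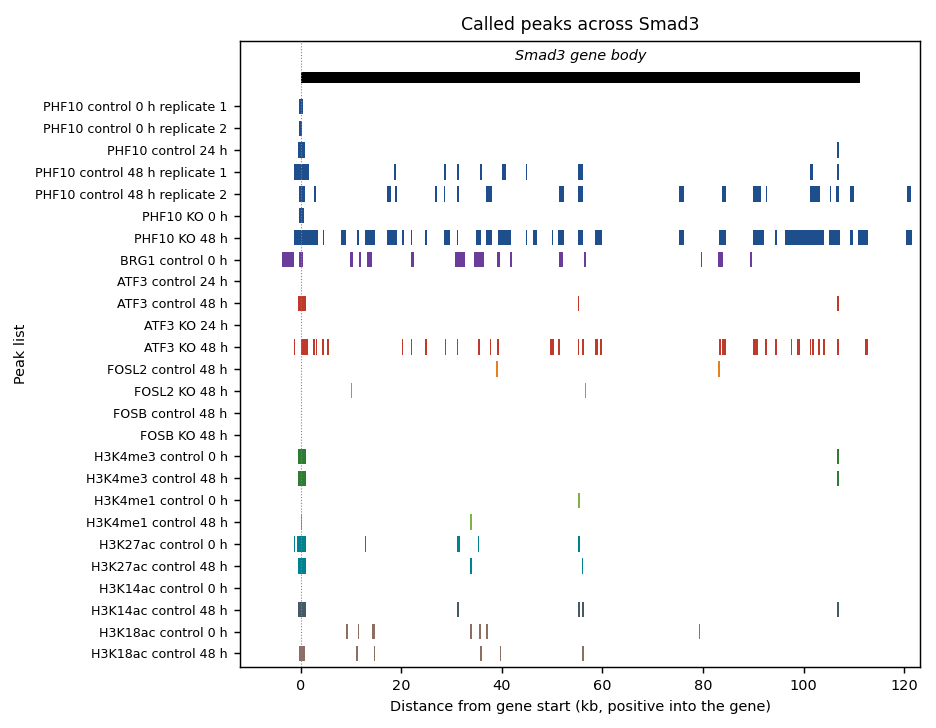
Called peaks (bars, coloured by antibody) in each list across Smad3, by distance from the gene start in kb, with the gene body in black. The FOSL2 peaks of control and KO cells lie at different places in the gene, each on a BRG1 peak of untreated cells.

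The AP-1 proteins were found at few sites, and 9 of the 11 FOSL2 peaks lay inside gene bodies away from the start. FOSL2 and FOSB had no peak in any window at 0 h. At 48 h FOSL2 had 4 peaks in control cells, at Smad3, Smad7 and Pmepa1 (3 of 8 genes, against 9.21% of all genes), and 7 in KO cells, at these genes and Tgfbr2 (4 of 8, against 17.2%). Tgfbr2 was the only member with FOSL2 in KO cells alone (8.63% of all genes). FOSB had 1 peak in control cells at 48 h, in Pmepa1, and none in KO cells (0.676% of all genes had FOSB in control cells alone).

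In Pmepa1, FOSL2 lay 10.2 kb into the gene in both genotypes (chr2:173266351-173266770 in control cells, fold 8.07, top 23.5%; chr2:173266338-173266683 in KO cells, fold 8.99, top 28.7%), and the FOSB peak of control cells lay on the same site. KO cells had a further FOSL2 peak at 12.9 kb and another 5.01 kb upstream. In Smad3 the sites differed between the genotypes. Control cells had FOSL2 at 83.2 kb (chr9:63674686-63674968, fold 5.47) and 39.1 kb (chr9:63718765-63719090, fold 5.21), and KO cells at 56.7 kb (chr9:63701166-63701491, fold 10.4) and 10.1 kb (chr9:63747726-63748023, fold 8.42). In Smad7 the peak lay 24.5 kb from the start in both genotypes. The FOSL2 peak of Tgfbr2 in KO cells, at chr9:116175180-116175455, had a fold of 5.89, in the weaker part of its list (75.1% from the top), with its summit 64 bp inside the gene.

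Of the 4 control FOSL2 peaks, 2 were also called in KO cells (50.0%, interval 6.76% to 93.2%, against 88.6% over all gene windows). With 1 library per genotype, and 3444 peaks in control against 7381 in KO cells, this difference between genotypes has no replicate check.

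All 11 FOSL2 peaks, which fall on 9 distinct sites, overlapped a BRG1 peak of untreated cells, as did the FOSB peak. Over all gene windows 53.1% of control and 44.8% of KO FOSL2 peaks did. BRG1 peaks covered 7.27% of the 8 windows against 1.26% of all gene windows, and how far this sets the overlap was not tested. The 9 BRG1 peaks concerned had folds from 2.51 to 4.16 where the median of the list was 2.90, and 7 of them lay above that median. They ranged from the top 4.32%, under the KO peak at 10.1 kb in Smad3, to 91.5% from the top, under the KO peak upstream of Pmepa1. The overlap at Smad7 was of 2 and 27 bp only. With an overlap of 50% of the shorter peak required, 9 of 11 (81.8%) overlapped BRG1. Among peaks with a −log10 q of at least 5 in both lists, 3 of 11 did (27.3%, against 9.46% over all gene windows). None of the 4 control FOSL2 peaks overlapped H3K27ac or H3K4me3 at 0 h or control ATF3 at 48 h (7.79%, 4.27% and 4.27% over all gene windows). Of the 7 KO peaks, 2 overlapped H3K27ac at 0 h and 1 overlapped H3K4me3 (7.15% and 3.87% over all gene windows).

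H3K27ac was called at all 8 starts at both times and had fewer window peaks after TGFβ1. Peaks in the start regions went from 12 to 9 and those elsewhere from 27 to 7. The 8 windows held 39 H3K27ac peaks at 0 h and 16 at 48 h: 13 and 1 in Pmepa1, 8 and 3 in Tgfb1, 6 and 3 in Smad3, 5 and 2 in Ski, 4 and 4 in Smad7, and 1 and 1 in each of Skil, Tgfbr1 and Tgfbr2. Smad3, Ski, Pmepa1 and Tgfb1 had fewer at 48 h, which is 4 of 8 where 26.7% of all genes did, and none had more. The list itself went from 20507 to 15962 peaks. Of the 39 peaks at 0 h, 13 were also called at 48 h (33.3%, interval 19.1% to 50.2%), against 64% of 18415 peaks in all gene windows. Without Pmepa1 the share was 46.2% of 26, and with peaks of at least 5-fold in both lists it was 48.0% of 25, against 70.8% over all gene windows. The sets differ in make-up, and these shares were not computed apart for start peaks and other peaks. Of the 39 peaks, 27 lay away from the start. Of the peaks absent at 48 h, 30.8% overlapped H3K4me3 at 0 h, against 70.6% over all gene windows.

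In Pmepa1, 12 peaks of 0 h were absent from the 48 h list. They ran from 4.71 kb upstream to 48.6 kb into the gene, 8 of them between 9.68 and 18.9 kb. Their folds, from 2.71 to 8.16, were below the list median of 10.6, and the strongest was in the top 54.7%. The start peak was in both lists, with a fold of 262 at 0 h (top 0.263%) and 265 at 48 h (top 0.169%). BRG1 in untreated cells was called at 9 of these 12, H3K14ac at 48 h at 9, and H3K18ac at 48 h at 8. Over the 8 genes the 26 peaks absent at 48 h overlapped H3K14ac at 48 h in 18 cases (69.2%, against 75.8% over all gene windows), BRG1 in 14 (53.8%, against 27.1%) and H3K18ac at 48 h in 9 (34.6%, against 5.44%). Without Pmepa1 the BRG1 share was 5 of 14 (35.7%) and the H3K18ac share 1 of 14 (7.14%), so Pmepa1 held most of both. BRG1 peaks covered 7.27% of the 8 windows against 1.26% of all gene windows, and H3K18ac at 48 h 5.80% against 0.650%.

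Smad7 differed from Pmepa1 in this respect. Its start peak and a second strong peak 3.3 kb into the gene were in both H3K27ac lists, with folds of 117 and 107 at 0 h (top 10.5% and 12.6%) and 182 and 153 at 48 h (top 3.34% and 6.82%), and 3 of its 4 peaks were called at both times. The same 3.2 kb site had ATF3 in control cells at 48 h, with a fold of 10.3 (top 12.7%).

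H3K18ac had 25 window peaks at 0 h and 40 at 48 h. Pmepa1 had 7 and 12, Smad7 6 and 10, Ski 2 and 6, Tgfb1 1 and 2, Smad3 7 and 6, and Skil 2 and 1, and Tgfbr1 and Tgfbr2 had none at 0 h and 2 and 1 at 48 h (24.6% of all genes had H3K18ac in the 48 h list alone). More bases were covered than the counts show: 5.09 kb of the Pmepa1 window at 0 h and 14.1 kb at 48 h, and 2.18 and 9.18 kb of the Smad7 window. In Smad3 the bases were 2.70 and 2.66 kb. In Skil, with 2 peaks and then 1, they were 1.66 and 3.21 kb. Over the 8 windows the covered share was 2.02% and 5.80%, against 0.282% and 0.650% over all gene windows.

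H3K14ac had 6 window peaks at 0 h and 51 at 48 h. Smad3, Tgfb1 and Tgfbr2 had it at 48 h alone, as 56.4% of all genes did, and Pmepa1 had 1 and 15. Its share of window peaks at 48 h was 89.5% with full lists and 40.0% at equal length. H3K4me1 had 20 and 9. Smad7, Skil, Pmepa1 and Tgfbr2 had it at 0 h alone (12.1% of all genes) and Tgfbr1 at 48 h alone (5.52%). H3K4me3 had 24 and 23 peaks, and only Smad7 had fewer at 48 h (4 and 3, where 13.7% of all genes had fewer). There the 2 start peaks of 0 h (1801 and 1309 bp) were a single peak of 3450 bp at 48 h, and the bases covered in the window went from 3.91 to 4.37 kb.

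**Figure D5:**
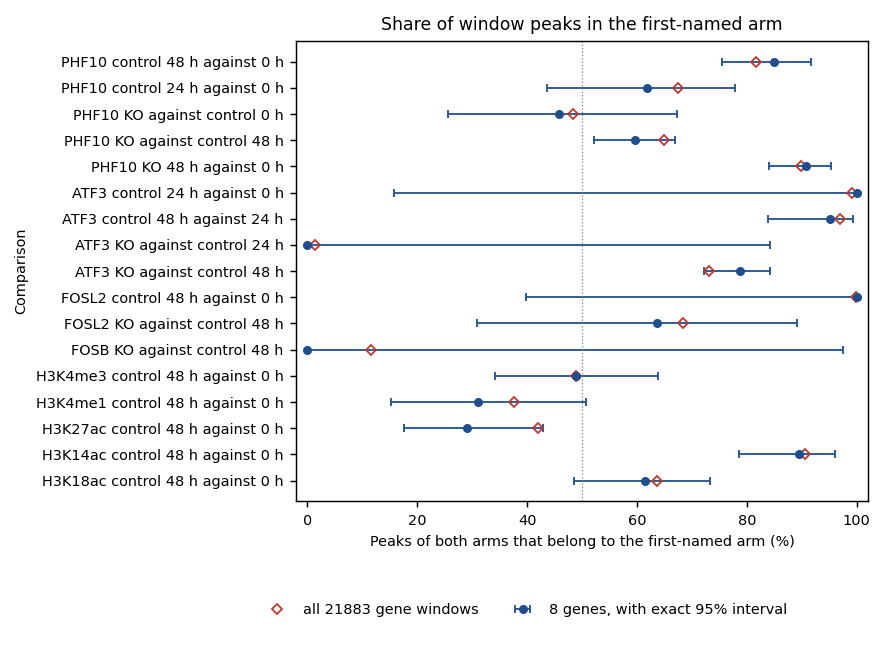
Share of the window peaks of both arms that belonged to the first-named arm of each comparison, for the 8 genes (circles, with exact 95% intervals that cover counting error only) and for all gene windows (diamonds). The values lie close together in most rows, and H3K27ac at 48 h against 0 h has the 8 genes at 29.1% and all windows at 42.0%. The interval of that row, 17.6% to 42.9%, holds the value of all windows.

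The other 42 genes of the pathway that were listed with these 8 (further ligands, receptors, SMADs, inhibitors and direct targets) are given by counts. At 48 h all 42 had PHF10 in both control lists (75.0% and 83.8% of all genes) and ATF3 in both genotypes (76.4% in control and 84.6% in KO cells). PHF10 was at 48 h alone in 4 of the 42 (14.5% of all genes), Eng, Thbs1 and Tgfb3 among them, and 23 had more PHF10 peaks in each 48 h library than in either 0 h library (52.1%). ATF3 peaks were more numerous in KO cells at 48 h in 39 and fewer in 2 (72.2% and 4.68% of all genes). FOSL2 was at 10 of the 42 in control cells at 48 h and at 15 in KO cells (9.22% and 17.2% of all genes), the strongest in control cells being at Cd109, a TGFβ coreceptor (fold 11.5), and Ltbp1, a latent TGFβ binding protein (10.7). H3K27ac peaks were fewer at 48 h in 16 and more numerous in 5 (26.7% and 5.09% of all genes). H3K18ac appeared at 48 h alone in 15 (24.6% of all genes), among them Acvr2a, Tgif2, Smad6 and Smad9.

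Genes whose presence or absence of a window peak across the 32 lists was most like each member were also looked up, with the number of lists that differ as the measure. The Smad3 pattern was shared in full by 159 genes, and ranked first among them were Ptpre and Sh3bp4. The Ski pattern was shared by 515, the Tgfb1 pattern by 329, the Tgfbr1 pattern by 167, the Skil pattern by 80, the Smad7 pattern by 31 and the Tgfbr2 pattern by 20. No other gene had the Pmepa1 pattern, and the nearest, Src and Nek6, differed in 1 list.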

How the data were processed

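ChIP-seq libraries of NMuMG cells were analysed from 32 deposited peak lists, 1 per library; 15 input libraries had no list used here. Each list names 1 ChIP library and 1 input, so peaks were called per library. Tools listed in the submitters' processing notes, with no role or setting, are MACS3 3.0.0a7, Bowtie2 2.3.3, fastp 0.19.5, deepTools 3.5.1 and Partek 11.0.24.0325, and the build listed is mm10. Chromatin for ATF3, BRG1 and PHF10 was fixed with disuccinimidyl glutarate and formaldehyde and that for the others with formaldehyde alone, per the labels' protocols. The deposited pileup signal was not compared. The deposited −log10 p and q values, which reach down to a −log10 q of 1.0 in the PHF10 and BRG1 lists and 1.3 in the others, ranked and filtered peaks within a list. The deposited fold, the authors' ratio of ChIP over input, described, ranked and filtered peaks within a list. Read depth is unknown, and precision rests on peak numbers.

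Gene spans were those of RefSeq on GRCm38.p6. A peak counted for a gene if it touched the span or 10 kb to either side. Peaks overlapped at 1 bp. Peak starts are printed as deposited and may be offset by 1 bp. Intervals of shares are exact (Clopper-Pearson, 95%, scipy 1.17.1) and hold counting error alone. The 2 control PHF10 libraries per time were compared with an exact permutation test that went through every split of the libraries in Python 3.11.15. Comparisons with 1 library in an arm have no test. The p-value measures the spread between libraries only, which may be technical. Counting was tested on simulated peaks. The members and gene lists were chosen with earlier results of these data known. Named pathway genes are up to 4 per comparison and arm with a peak in that arm alone, by highest fold, and like genes are the 2 that differ in the fewest lists, ties broken by peak numbers. Some genes of these lists are not reported here. FOSL2, FOSB, H3K27ac and new PHF10 sites were described in full after their values were seen. Alternatives were peaks with −log10 q or fold of at least 5, merging within 1 kb, other windows, equal list length, each PHF10 library left out and the replicate number as a block.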

Additional observations from a re-analysis of the deposited data

Results flagged for a closer look

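PHF10 peaks in the 8 windows were 1.5 fewer in KO than in the mean of the control libraries at 0 h (a difference of -1.5) and 35 more at 48 h. The difference between genotypes thus had opposite signs at the 2 times, and this change was not tested. With lists cut to equal length, KO held 47.8% of the window peaks at 0 h and 32.8% at 48 h, so the signs were then no longer opposite. At 48 h the KO list was also the longest, with 158815 peaks.

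ATF3 peaks in the 8 windows differed by -2 between KO and control at 24 h, both of them in Pmepa1, and by 108 at 48 h. This change of sign between times rests on 1 library per genotype and time and was not tested. The whole lists changed in the same way, with 69 peaks in KO against 2004 in control cells at 24 h, and 144513 against 45716 at 48 h.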

How the results depend on the processing

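Of 117 recomputed shares of window peaks, 93 stayed within the interval of the reported value, 14 moved and 10 turned direction. Of 122 recomputed counts of genes with peaks in 1 arm only, 91 stayed and 31 moved. Shares are of the first arm.

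At equal list length the share was 40.0% (PHF10, 48 h against 0 h), 32.8% (PHF10, KO against control at 48 h), 8.33% (PHF10 KO, 48 h against 0 h), 40.0% (H3K14ac), 66.7% (ATF3 control, 48 h against 24 h) and 58.3% (ATF3, KO against control at 48 h). Folds differed in scale between lists, so a cut at a fold of 5 gives no direction. With a fold of at least 5 the share was 12.5%, 0% and 0% for the PHF10 comparisons in that order. These rest on 1 against 7, 0 against 1 and 0 against 9 peaks. It was 9.68% for ATF3 KO against control at 48 h, 100% for ATF3 control at 48 h against 24 h, and 83.3% for H3K4me1. With a −log10 q of at least 5 it was 50%, 30% and 25% for PHF10, 100% for ATF3 control at 48 h against 24 h and 62.9% for ATF3 KO against control at 48 h. Among the 5 genes of known strand, within 10 kb of the start, it was 72.2% (PHF10, 48 h against 0 h), 78.3% (PHF10 KO, 48 h against 0 h), 100% (ATF3 control, 48 h against 24 h), 67.7% (ATF3, KO against control at 48 h), 100% (FOSL2, KO against control), 57.1% (H3K4me1) and 81.8% (H3K18ac). Apart from the lower number of peaks in each, the cause was not tested. Chosen after the data were seen, a −log10 q of at least 5 left 27.3% of FOSL2 peaks on BRG1.

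Counts of genes with a peak in the second arm alone came to 3 (PHF10, 48 h against 0 h), 1 (PHF10, 24 h against 0 h), 8 (PHF10 KO, 48 h against 0 h), 5 (ATF3, KO against control at 48 h) and 1 (H3K4me1) with a fold of at least 5, to 2 (PHF10, KO against control at 48 h), 6 (PHF10 KO, 48 h against 0 h) and 2 (H3K4me1) with a −log10 q of at least 5, and to 1 (PHF10, KO against control at 48 h), 7 (PHF10 KO, 48 h against 0 h), 1 (FOSL2, KO against control), 2 (H3K4me1) and 2 (H3K14ac) at equal length. Counts in the first arm alone came to 1 for PHF10 at 24 h against 0 h and for PHF10 KO against control at 0 h with either filter, to 3 (H3K4me1) and 4 (H3K18ac) with a fold of at least 5, and to 3 (ATF3 control, 48 h against 24 h), 2 (H3K4me1), 1 (H3K14ac) and 0 (FOSL2 at 48 h, both comparisons) at equal length. The count for the Pmepa1 peaks of ATF3 at 24 h was 0 under all of these settings, and that for the FOSB peak was 0 at equal length only.

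Leaving out each control PHF10 library gave log2 differences from 2.14 to 2.87. Replicate numbers, taken from the sample labels although the name of a 48 h list carries another number than its label, did not pair the libraries (r = -0.039 over genes), and with the replicate number as a block the difference was 2.5 with an exact p of 0.50. With a −log10 q of at least 5 it was 0.21. Depth is unknown, so list length could not be corrected for it.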

Other observations

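Several sites inside or beside the genes were called for most antibodies at once. In Tgfb1 a site 17.9 kb from the start, near the gene's far end, carried ATF3 in control cells at 48 h with a fold of 12.3 and overlapped peaks of 15 other lists, among them H3K4me3, H3K4me1, H3K27ac, H3K14ac and PHF10. In Pmepa1 a site 48.6 kb from the start had a fold of 12.9 for ATF3 and overlapped 11 other lists, and a site at 38.1 kb overlapped 10. In Ski a site at 71.7 kb, beyond the end of the gene and towards Morn1, overlapped 16 other lists, and its H3K4me1 peak at 48 h had a fold of 28.1, in the top 2.04% of that list, where no other H3K4me1 window peak at 48 h exceeded 14.3.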
